A study of Rattus norvegicus with 10 samples.

Results

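The miR-15/16 seed family is a set of small RNAs whose main arms share the letters AGCAGC at bases 2 to 7, described here in the subcutaneous tissue of arthritic rats across 10 small RNA libraries. Members were all mature miRNAs of the miR-15b, miR-16, miR-195, miR-497, miR-322 and miR-503 hairpins by name, which took 12 of the 723 mature rat miRNAs listed. They comprise 6 main arms (rno-miR-15b-5p, rno-miR-16-5p, rno-miR-195-5p, rno-miR-497-5p, rno-miR-322-5p and rno-miR-503-5p, where rno stands for rat and is left out below) and the 6 opposite, or passenger, arms of the same hairpins. The study asked how a mechanical stimulation of dorsal subcutaneous tissue acts on arthritis, and the samples were frozen tissue labelled as muscle lying under the epidermis of female Wistar rats with collagen-induced arthritis (CIA). In CIA, animals are immunized with bovine type II collagen in adjuvant. All 5 groups shared this disease, and no healthy animal is among these libraries. CIA_B was sampled before any therapy. MS_E and MS_A received the stimulation, insertion and rotation of a thin needle, and were sampled at 1 h and at 34 days. The paper describes the stimulation as repeated every other day. PLA_E and PLA_A received an injection of sterile saline as placebo and were sampled at the same 2 times. Each group held 2 libraries labelled as replicates. Nothing in the labels says that they came from separate animals, so that p-values measure the spread between these libraries, which may be technical. One sentence of the series' design text speaks of blood, whereas every sample label gives muscle.

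MicroRNAs guide the silencing machinery to messenger RNAs that pair with their seed, the bases from the second to the eighth. The miR-15/16 family is known as a brake on the cell cycle, with cyclins, cyclin-dependent kinases and the survival factor BCL2 among its targets. The pair of miR-195 and miR-497 is linked to the exit of muscle cells from the cycle, and miR-322 and miR-503 (miR-322 is the rodent counterpart of human miR-424) are known to rise as myoblasts differentiate.

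The 6 main arms are printed because the shared seed defines the family, and because the letters after it tell the members apart. Sequences are from RefSeq on build GRCr8, written 5′ to 3′, and capitals mark bases 2 to 8. All 12 members matched an entry. 
miR-16-5p, chr2:155555343-155555364, plus strand: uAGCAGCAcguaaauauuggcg
miR-15b-5p, chr2:155555197-155555218, plus strand: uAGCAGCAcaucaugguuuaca
miR-195-5p, chr10:55450509-55450529, plus strand: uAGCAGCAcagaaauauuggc
miR-497-5p, chr10:55450172-55450193, plus strand: cAGCAGCAcacugugguuugua
miR-322-5p, chrX:137726198-137726219, minus strand: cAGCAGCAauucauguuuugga
miR-503-5p, chrX:137725899-137725921, minus strand: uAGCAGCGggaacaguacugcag

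Among 693 mature rat miRNAs with a sequence, 6 carried AGCAGC at bases 2 to 7, and these were the 6 main arms. The full seed AGCAGCA was shared by 5 of them, whereas miR-503-5p carried AGCAGCG. Over the whole mature length, miR-16-5p and miR-195-5p were the closest, with 19 of 21 positions identical, so that short or mismatched reads of one could be counted for the other. The pair miR-15b-5p and miR-497-5p had 16 of 22 identical positions.

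The hairpins lie in 3 clusters. On chromosome 2, miR-15b-3p and miR-16-5p are separated by 86 bases, within the gene Smc4. On chromosome 10, 255 bases separate the hairpins Mir497 and Mir195. On chromosome X, Mir503 and Mir322 lie 220 bases apart, next to Mir351, Mir542 and Mir450a1.

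Libraries held 1513799 to 8926170 reads assigned to miRNAs, the fewest in CIA_B 1. Levels are cpm, counts scaled to the same total in each library after TMM scaling, which corrects for differences in library composition, and 3 reads correspond to 2.60 cpm in CIA_B 1 and to 0.366 to 0.828 cpm in the others. All 4 skeletal muscle markers (miR-1-3p, miR-206-3p, miR-133a-3p, miR-133b-3p) were present in each library, and their sum ranged from 83894 to 268478 cpm. However, miR-1-3p split the libraries into 1 high and 1 low library in each group. It was 80400 to 122962 cpm in CIA_B 1, MS_E 2, PLA_E 1, MS_A 2 and PLA_A 1 (called here the miR-1-high libraries), and 10115 to 15564 cpm in the others. MiR-206-3p split the same way, whereas miR-133a-3p overlapped, at 70505 to 128713 against 67920 to 139360 cpm. The division was drawn from the data and is not a label of the study. Since each group holds 1 library of either kind, it is balanced over the groups, and values on both sides are given below without a test. In bulk tissue, fewer cells of a type and less RNA per cell cannot be told apart.

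The family took 0.283% (MS_E 1) to 1.602% (PLA_A 1) of all reads, with a median of 0.622%. MiR-16-5p alone made up 72.5 to 85.7% of the family's reads. MiR-195-5p followed with 7.10 to 14.4%, then miR-322-5p with 1.94 to 7.92% and miR-497-5p with 1.84 to 3.68%. MiR-15b-5p gave 0.258 to 1.58% and miR-503-5p 0.0111 to 0.136%, and the 6 passenger arms together 0.643 to 1.74%. By mean log2 level among the 359 miRNAs that passed the filter (at least 1 cpm in at least 5 libraries), miR-16-5p ranked 17, miR-195-5p 57, miR-322-5p 79, miR-497-5p 87, miR-15b-5p 151 and miR-503-5p 277. The abundance of a miRNA in small RNA libraries also depends on its ligation to adapters, so that ranks across miRNAs are approximate. MiR-16-3p (0 to 16 reads) and miR-497-3p (0 to 9 reads) did not pass the filter, so 10 of the 12 members were tested.

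MiR-16-5p, the dominant member, measured 7425 and 4184 cpm in CIA_B 1 and 2. After stimulation it measured 2831 and 7474 cpm at 1 h and 6510.0 and 8005 cpm at 34 days, and after placebo 5791 and 3489.8 cpm at 1 h and 10356 and 4638 cpm at 34 days. The miR-1-high library was the higher one in all 5 groups, by 1.23 to 2.64 fold, although the 2 sets of libraries overlapped (5791 to 10356 against 2831 to 6510.0 cpm). Group means ran from 7497 ± 4043 (SD, n = 2) in PLA_A to 4640.5 ± 1627 (SD, n = 2) in PLA_E, and no neighbours in this order were free of overlap. With library size as the only scaling, the miR-1-high library was still the higher one in all 5 groups and the sets did not overlap.

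MiR-195-5p, from the chromosome 10 cluster, measured 877 and 624 cpm before therapy, 563 and 632 then 768 and 704 cpm at the 2 times of stimulation, and 503.4 and 401 then 935 and 394 cpm at those of placebo. Both extremes were found within PLA_A, and only MS_E and PLA_E were neighbours without overlap, which they were not with library size as the only scaling. Its cluster partner miR-497-5p measured 183 and 147 cpm before therapy, 71.9 and 257 then 166 and 312 cpm under stimulation, and 252 and 98.5 then 437 and 103 cpm under placebo. Each pair of groups overlapped for miR-497-5p, and the miR-1-high library was again the higher one in each group, by 1.24 to 4.26 fold (in 4 of 5 groups with library size alone).

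MiR-322-5p was the steadiest main arm, with 334 and 214.2 cpm before therapy, 309 and 253 then 376 and 226 cpm under stimulation, and 211 and 245 then 236 and 312 cpm under placebo. Its highest level was 1.78 times its lowest, and it was higher in the miR-1-high library in 1 of 5 groups, which turned to 5 of 5 with library size as the only scaling. MiR-503-5p, encoded next to it, varied most, with 12.1 and 0.588 cpm before therapy, 2.16 and 7.49 then 0.949 and 11.7 cpm under stimulation, and 8.04 and 2.48 then 8.72 and 1.09 cpm under placebo. These levels rest on 4 to 96 reads a library, and the miR-1-high libraries lay above all others.

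MiR-15b-5p, the cluster partner of miR-16-5p, measured 25.1 and 16.2 cpm before therapy, 61.6 and 27.0 then 27.0 and 24.1 cpm under stimulation, and 22.2 and 13.2 then 116 and 21.0 cpm under placebo. PLA_A 1 and MS_E 1 stood above the other 8 libraries. Its order of group means was PLA_A, MS_E, MS_A, CIA_B and PLA_E, and no neighbours in it were free of overlap, whereas MS_E and MS_A were with library size alone.

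**Figure D1:**
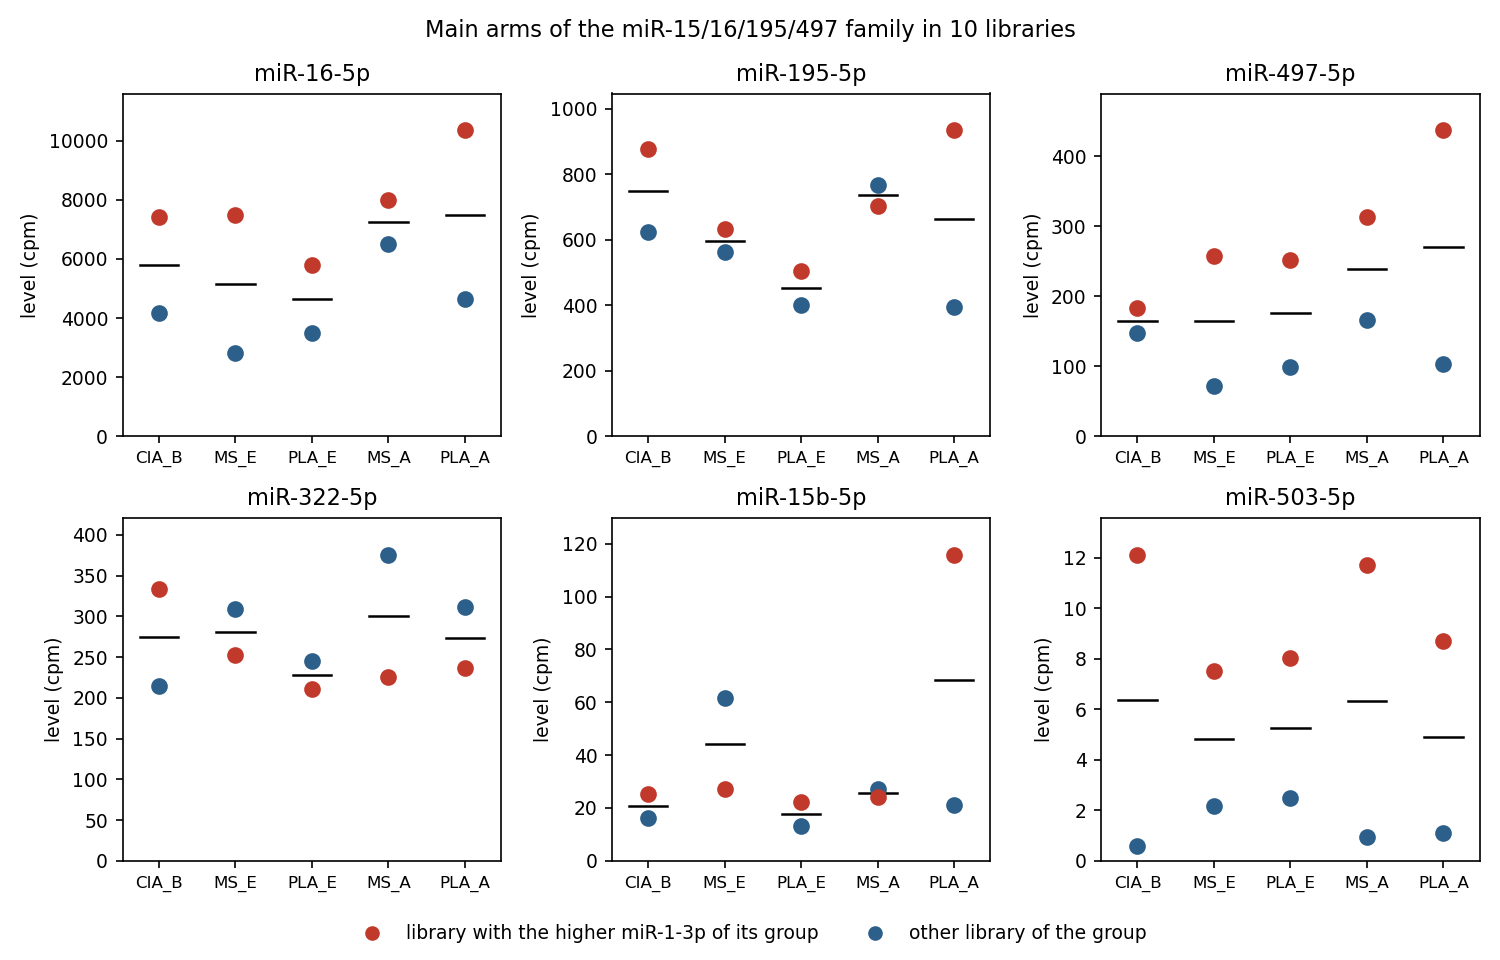
Levels of the 6 main arms in cpm (linear axes from 0) in the 2 libraries of each group; red points mark the library with the higher miR-1-3p, blue points the other, and black bars the mean of the 2. MiR-503-5p and, on this TMM scale, miR-497-5p are higher in all 5 red libraries than in any blue one, and miR-15b-5p is set apart by PLA_A 1 (116 cpm) and MS_E 1 (61.6 cpm).

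Across the division by miR-1-3p, 3 of the 10 tested members were higher without overlap in the miR-1-high libraries, and none was lower. Among all 359 miRNAs tested, 9.47% were higher without overlap and 5.01% lower. The 3 members were miR-497-5p (183 to 437 against 71.9 to 166 cpm), miR-503-5p (7.49 to 12.1 against 0.588 to 2.48 cpm) and miR-503-3p (6.97 to 9.52 against 4.14 to 6.17 cpm). With library size as the only scaling, miR-497-5p overlapped, and miR-16-5p and miR-195-5p joined both arms of miR-503, giving 4 members, beside 11.98% of all miRNAs higher and 0% lower. The fold between the 2 libraries of a group was 20.6 in CIA_B, 3.47 in MS_E, 3.24 in PLA_E, 12.3 in MS_A and 7.97 in PLA_A for miR-503-5p, against 1.23 to 1.85 for miR-503-3p.

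The ratio of the 2 arms of the miR-503 hairpin thus differed between the libraries. Its sequence is shown since both arms are counted from it, with the mature arms in capitals (5p first).
Mir503, GRCr8 chrX:137725856-137725926, minus strand: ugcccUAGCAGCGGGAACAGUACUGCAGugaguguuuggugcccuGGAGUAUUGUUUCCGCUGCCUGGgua
For each read of miR-503-3p there were 1.27 reads of miR-503-5p in CIA_B 1, 1.00 in MS_E 2, 1.05 in PLA_E 1, 1.55 in MS_A 2 and 1.25 in PLA_A 1. The other libraries gave 0.10 in CIA_B 2, 0.389 in MS_E 1, 0.60 in PLA_E 2, 0.154 in MS_A 1 and 0.207 in PLA_A 2. Thus the 5p arm, counted here as the main arm, was at least as abundant as the 3p arm in the miR-1-high libraries and less abundant in the rest. A ratio of 2 miRNAs within a library does not depend on how that library is scaled.

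Other hairpins of the family and its cluster were read the same way. For miR-195, the ratio of 5p to 3p reads was 36.2 to 60.8 in the miR-1-high libraries and 15.5 to 34.4 in the others, without overlap. MiR-195-3p itself measured 11.6 to 36.3 cpm and was higher in the miR-1-high library in 1 of 5 groups (2 of 5 with library size alone). For miR-322, the ratio was 5.28 to 7.88 against 4.54 to 8.67, and for miR-15b it was 7.92 to 29.0 against 7.67 to 13.8, both with overlap.

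Hence the arm ratio was higher without overlap in the miR-1-high libraries for 2 of the 4 family hairpins with both arms counted everywhere (miR-503 and miR-195). Over all 99 such hairpins, 14.1% were higher and 9.09% lower without overlap. Within the chromosome X cluster, miR-450a, no family member, went the other way, at 49.3 to 73.0 reads of 5p for each 3p read against 252 to 530, where the 3p arm gave 1 to 19 reads a library. MiR-542 gave 0.388 to 1.03 against 0.113 to 0.400, with overlap.

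**Figure D2:**
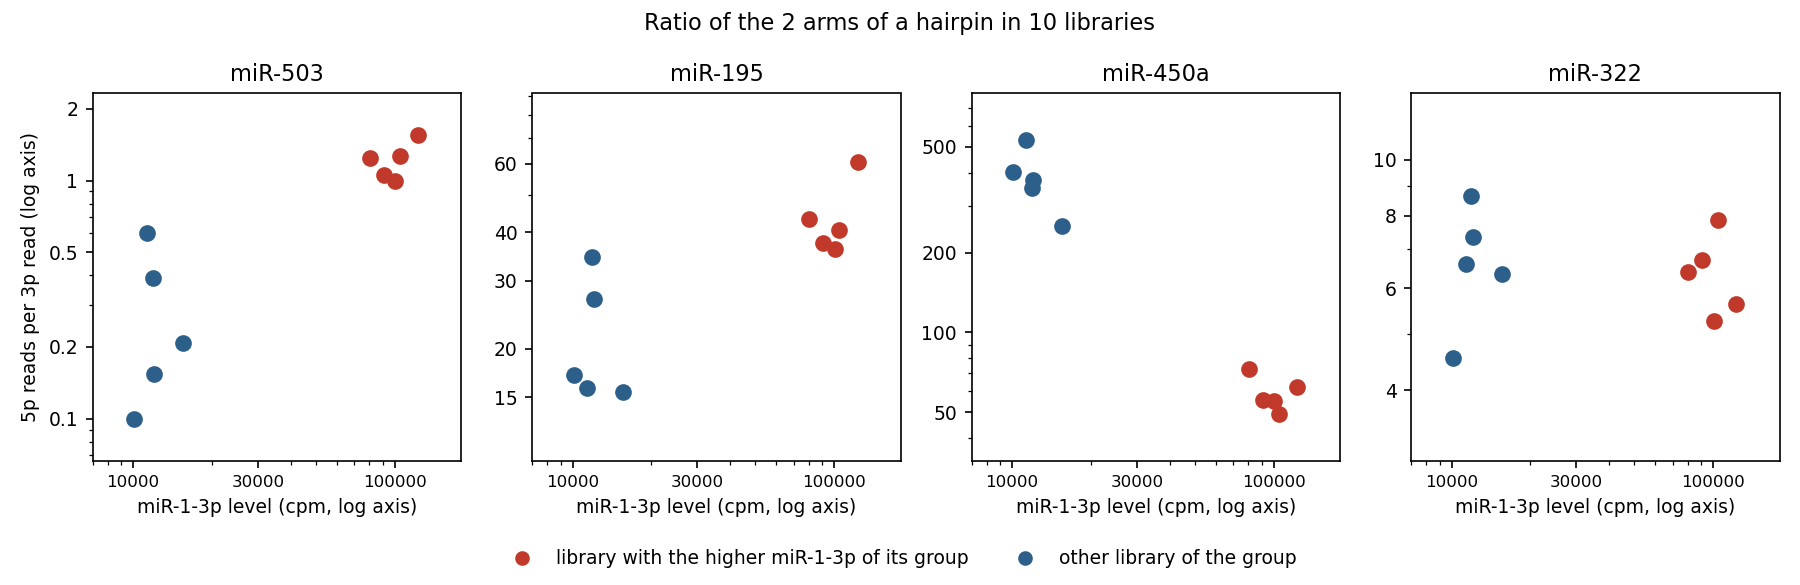
Reads of the 5p arm for each read of the 3p arm (log axes) against the miR-1-3p level in cpm (log axis) in 10 libraries, for miR-503, miR-195, the neighbour miR-450a and miR-322; red points are the miR-1-high libraries. Red and blue points are separate on the ratio axis for miR-503 (1.00 to 1.55 against 0.10 to 0.60), miR-195 and, in the opposite direction, miR-450a, whereas those of miR-322 overlap.

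Pairs of main arms from a single cluster were then compared by their ratio within each library. The ratio of miR-322-5p to miR-503-5p was 19.3 to 33.8 in the miR-1-high libraries and 98.6 to 396 in the others. That of miR-195-5p to miR-497-5p was 2.00 to 4.81 against 3.84 to 7.83. Between MS and PLA, between 34 days and 1 h and between libraries after and before therapy, these and the miR-15b-5p to miR-16-5p ratio gave 9 exact two-sided permutation tests on log2 ratios. The p-values ranged from 0.311 to 0.914, and after Benjamini-Hochberg adjustment from 0.9 to 0.914. The smallest p these exact tests allow is 0.0286 for 4 against 4 libraries and 0.0444 for 8 against 2. The largest difference was 0.58 (log2) for miR-15b-5p to miR-16-5p, with means of -7.53 ± 0.99 (SD, n = 8) after and -8.11 ± 0.14 (SD, n = 2) before therapy (exact permutation p = 0.444). It was 0.29 without MS_E 1 and 0.07 without both MS_E 1 and PLA_A 1.

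Although miR-15b and miR-16 lie in a single cluster, their ratio was nearly fixed in 8 libraries and distinct in the remaining pair. For 1000 reads of miR-16-5p there were 3.01 to 4.52 reads of miR-15b-5p in 8 libraries. MS_E 1 gave 21.8 and PLA_A 1 gave 11.2, that is 4.81 and 2.47 times the highest of the other 8. The passenger arm miR-15b-3p was highest in the same libraries, at 8.72 cpm (35 reads) in PLA_A 1 and 4.48 cpm (29 reads) in MS_E 1 against 0.865 to 3.05 cpm elsewhere.

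Several marker lists were at an extreme in those libraries. The summed leukocyte markers (5 of 6 names listed, all 5 above 0 in each library) measured 14583 cpm in PLA_A 1 and 3401 in MS_E 1 against 1638 to 3054 in the other 8. Of these, miR-142-3p, miR-142-5p and miR-150-5p were highest in PLA_A 1, with miR-142-5p at 5854 cpm, whereas miR-223-3p there, at 43.3 cpm, lay inside the range of the other libraries. In MS_E 1 the sum was carried by miR-146a-5p (2815 cpm, its highest), while miR-150-5p was at its lowest, 256 cpm, and miR-142-5p measured 257 cpm. The epithelial list (miR-203a-3p, miR-205, miR-141-3p, miR-429 and 3 members of the miR-200 family) summed to 447 cpm in MS_E 1 and 135 in PLA_A 1 against 33.7 to 120 in the other 8, and 7 of its 7 members were highest in MS_E 1. The contrast was wide for miR-200b-3p (34.1 cpm in MS_E 1, 0 to 2.28 in the other 9 libraries) and miR-141-3p (220.0 cpm in MS_E 1, 26.6 in PLA_A 1), and small for miR-205 (69.2 cpm against 17.3 to 66.2) and miR-203a-3p (68.4 cpm against 11.2 to 53.8).

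Among the other lists, the slow fibre pair (miR-499-5p and miR-208b-3p) was highest in PLA_A 1, at 1025 cpm against 94.4 to 826 in the other 8 libraries, and 56.5 in MS_E 1. MS_E 1 had the highest erythroid sum, 88.6 cpm against 17.4 to 67.4, of which miR-451-5p gave 79.8, whereas miR-144-3p (4.63 cpm) and miR-144-5p (4.17 cpm) lay inside the range of the other libraries. It also had the lowest endothelial sum, 4274 cpm against 8493 to 14717. Its skeletal muscle sum was also the lowest, 83894 cpm against 91561 to 268478. The part of these cell types in the level of miR-15b-5p was not tested.

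**Figure D3:**
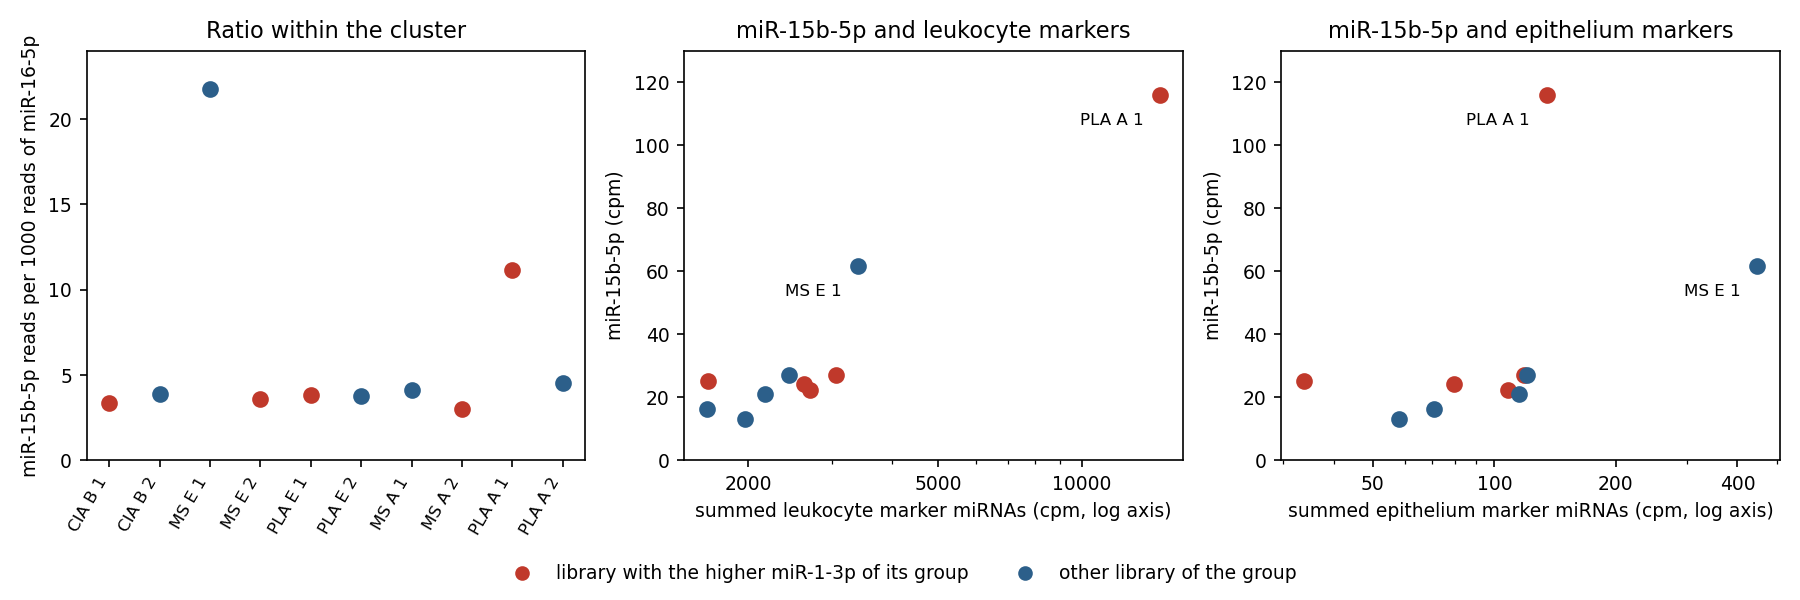
Left, reads of miR-15b-5p for 1000 reads of miR-16-5p in each library; middle and right, miR-15b-5p in cpm against the summed leukocyte and epithelial marker miRNAs in cpm (log axes), with miR-1-high libraries in red. PLA_A 1 is highest for the leukocyte sum (14583 cpm) and MS_E 1 for the epithelial sum (447 cpm), whereas the other 8 libraries hold 13.2 to 27.0 cpm of miR-15b-5p.

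Comparisons between groups used edgeR's quasi-likelihood test on all 10 libraries. A miRNA was called where it changed more than 2 fold with p under 0.05 before adjustment, and p-values were also adjusted over all 359 miRNAs by the Benjamini-Hochberg method. No member reached an adjusted p under 0.05 in any of 10 comparisons by edgeR, limma-voom or DESeq2. Over all 359 miRNAs edgeR and limma-voom had 0 such calls too, whereas DESeq2 had 6 in MS_E against CIA_B (1.67%) and 2 each (0.557%) in PLA_A against CIA_B, MS_E against PLA_E and MS_A against PLA_A. Past both unadjusted thresholds, edgeR called 1 member in PLA_A against CIA_B and 1 in the interaction of arm and time. DESeq2 called 1 in each of the same comparisons, beside 9.75% and 4.18% of all, and limma-voom 0, beside 5.57% and 1.11%, and 0 in the other 8. Fold changes below are log2 values with their standard error (SE). The 5 comparisons with CIA_B share its 2 libraries.

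The count of members in each direction depended on the scaling. With library size alone, without TMM, the median of all 359 miRNAs moved from 0.07 to 0.41 in PLA_E against CIA_B, from 0.11 to 0.40 in PLA_A against CIA_B and from -0.03 to -0.30 in MS against PLA. The members moved with it, so that 7 of 10 in place of 2 were higher in PLA_E, 9 in place of 5 in PLA_A, 7 in place of 3 in MS_E against CIA_B, 8 in place of 4 after therapy, 1 in place of 5 in MS_A against PLA_A, and 0 in place of 7 in MS against PLA. Directions given below hold under TMM and are to be read beside the median of all. Shares of all miRNAs without overlap between groups are given under TMM only.

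One hour after stimulation (MS_E against CIA_B), miR-15b-5p was the main arm that differed most, by 1.10 ± 0.77 (SE). Of 10 members tested, 3 were higher and 7 lower with a median of -0.14, beside 0.06 for all 359, and 0 were called against 6.41% of all. Both arms of miR-15b were higher without overlap, where 18.4% of all miRNAs were, and miR-195-3p was lower without overlap, where 13.1% were. Scaled by library size alone 0 members were lower without overlap, and with DESeq2 size factors miR-195-5p was as well. Without MS_E 1 the difference of miR-15b-5p was 0.35. The separation of miR-15b-3p rested on 29 and 17 reads in MS_E and on 1 and 12 reads in CIA_B.

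One hour after the placebo injection (PLA_E against CIA_B), miR-195-5p had the largest difference among main arms, at -0.73 ± 0.47 (SE). Here 2 members were higher and 8 lower, the median was -0.29 beside 0.07 for all, and 0 were called against 0.557% of all. MiR-195-5p and miR-322-3p were lower without overlap, as were 9.47% of all miRNAs, and no member was higher without overlap (11.7% of all). With library size as the only scaling the median of all shifted to 0.41, that of the members to 0.17, miR-195-5p measured -0.27, and no member was free of overlap.

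At 34 days of stimulation (MS_A against CIA_B), miR-497-5p led the main arms with 0.54 ± 0.82 (SE), and miR-15b-3p had the highest value, 0.86. Here 7 members were higher and 3 lower, with a median of 0.18 beside 0.10 for all, and 0 were called against 1.11% of all. MiR-15b-3p was higher without overlap, where 16.2% of all miRNAs were, as was miR-15b-5p with DESeq2 size factors, and none was lower, as 10.9% were. The levels of miR-15b-3p were 2.85 and 3.05 cpm (12 and 25 reads) in MS_A and 0.865 and 1.76 cpm (1 and 12 reads) in CIA_B. The miR-497-5p difference turned to -0.05 without MS_A 2.

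At 34 days of placebo (PLA_A against CIA_B), miR-15b-3p passed both unadjusted thresholds, with a log2 fold change of 1.72 ± 0.68 (SE) by edgeR's quasi-likelihood test (Benjamini-Hochberg adjusted p = 0.543). It was the 1 member called of 10, beside 6.96% of all miRNAs. The call was lost with limma-voom (1.57), DESeq2 (1.79) and the replicate block (1.55), and without any 1 of CIA_B 1 (1.40), CIA_B 2 (2.28) and PLA_A 1. Its levels were 0.865 and 1.76 cpm (1 and 12 reads) in CIA_B and 8.72 and 2.73 cpm (35 and 15 reads) in PLA_A, so both PLA_A libraries lay higher, as in 20.9% of all miRNAs. MiR-15b-5p differed by 1.73 ± 0.79 (SE) without reaching the threshold before adjustment (edgeR, adjusted p = 0.543), and its groups overlapped, though not with library size alone. Both changes rested on PLA_A 1, the library with the highest leukocyte sum, and without it they were 0.73 for miR-15b-3p and 0.07 for miR-15b-5p. There 5 members were higher and 5 lower, with a median of -0.03 beside 0.11 for all, and with library size alone the medians were 0.37 and 0.40.

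Stimulation was compared with placebo at each time. At 1 h (MS_E against PLA_E), 4 of 10 members were higher without overlap, where 16.4% of all miRNAs were: miR-15b-5p, miR-15b-3p, miR-195-5p and miR-322-5p. MiR-15b-5p showed the largest difference among main arms, at 1.30 ± 0.77 (SE), and 0.52 without MS_E 1. None was called, against 3.9% of all, and the median was 0.22 beside 0.03 for all. With library size as the only scaling, the 2 arms of miR-15b kept this separation, whereas miR-195-5p and miR-322-5p overlapped (miR-322-5p also with DESeq2 size factors) and the medians were -0.01 for members and -0.23 for all.

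At 34 days (MS_A against PLA_A), miR-15b-5p was lower after stimulation by -1.40 ± 0.77 (SE), and the groups overlapped. This turned to 0.29 without PLA_A 1. Of the members, 5 were higher and 5 lower, the median was 0.02 beside -0.02 for all, and 0 were called against 1.95% of all. No member was free of overlap in this comparison, in which 7.52% of all miRNAs were higher and 12.5% lower without overlap. With library size as the only scaling miR-195-3p, miR-322-5p and miR-322-3p were lower without overlap, and the medians were -0.33 for members and -0.34 for all. The share of all miRNAs lower without overlap under that scaling is not given, so these members cannot be set against it.

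The change from 1 h to 34 days differed between arms for miR-15b-5p, with an interaction of -2.70 ± 1.08 (SE) on the log2 scale by edgeR's quasi-likelihood test (Benjamini-Hochberg adjusted p = 0.993). This was the 1 member called of 10, beside 3.34% of all miRNAs. The call was lost with limma-voom (-2.13) and without any 1 of MS_E 1 (-1.87), PLA_E 2 (-2.36), MS_A 1 (-2.71), MS_A 2 (-2.71) and PLA_A 1 (-1.12). Without both MS_E 1 and PLA_A 1 the value was -0.31 and no member was called.

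Averaged over both times, MS and PLA differed most in miR-195-5p among the main arms, by 0.27 ± 0.33 (SE). This difference was 0.07 without PLA_A 2 and 0.69 without PLA_A 1, and it turned to -0.08 with library size as the only scaling. None of the 10 members was called, against 3.34% of all, and 7 were higher and 3 lower with a median of 0.10 beside -0.03 for all.

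Averaged over both arms, 10 of 10 members were higher at 34 days than at 1 h, with a median of 0.34 beside 0.06 for all miRNAs. With library size alone 9 of 10 were higher (median 0.23 beside -0.04), and without PLA_A 1 it was 6 of 10 (0.11 beside -0.05). MiR-16-5p led the main arms with 0.59 ± 0.43 (SE) and miR-15b-3p had the highest value, 0.70. None was called, against 4.74% of all, and members of a cluster are not independent. Without MS_E 2 the miR-16-5p difference was 1.03, whereas without PLA_A 1 it was 0.25. Without both MS_E 1 and PLA_A 1 it was 0.00, and 7 of 10 members were higher (median 0.07 beside 0.08 for all).

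All 8 libraries after therapy against CIA_B gave 4 members higher and 6 lower, with a median of -0.03 beside 0.04 for all. MiR-15b-5p was again the largest among main arms, at 0.74 ± 0.64 (SE), and 0.36 without PLA_A 1, 0.44 without CIA_B 2 and 0.15 without both MS_E 1 and PLA_A 1. In this comparison 0 members were called against 4.18% of all.

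**Figure D4:**
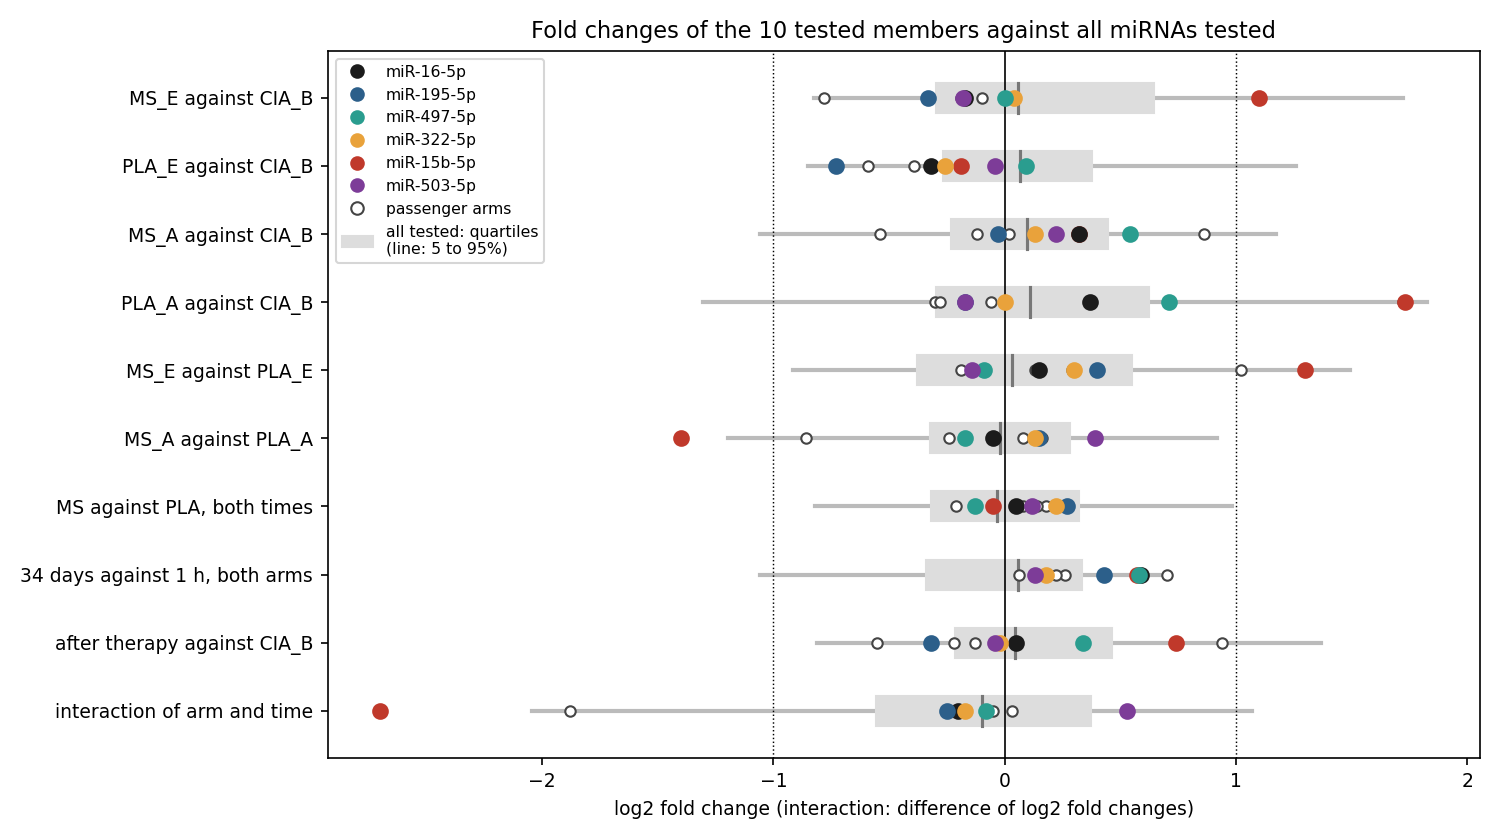
Log2 fold changes of the 10 tested members (filled, main arms; open, passenger arms) in 10 comparisons, over the quartiles (grey boxes) and the 5 to 95% range (grey lines) of all 359 miRNAs tested; dotted lines mark a change of 2 fold. MiR-15b-5p lies farthest out, at 1.73 in PLA_A against CIA_B and at -2.70 in the interaction, whereas miR-322-5p stays between -0.26 and 0.30 in all 10.

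Relatives outside the family were read beside it. MiR-103-3p and miR-107-3p, regulators of lipid and glucose metabolism, carry the letters AGCAGC shifted by 1 base, at positions 1 to 6. MiR-103-3p measured 329 to 415 cpm in the miR-1-high libraries and 434 to 582 cpm in the others, without overlap, and miR-107-3p was lower in the miR-1-high library of all 5 groups with overlap between the sets. Scaled by library size alone miR-103-3p overlapped (277 to 546 against 315 to 539 cpm), and each was lower in 3 of 5 groups. In the chromosome X cluster, miR-351-5p ranged from 211 to 786 cpm and miR-450a-5p from 96.7 to 184 cpm, both with overlap. MiR-542-3p was lower in the miR-1-high libraries without overlap, at 23.03 to 29.3 against 34.6 to 71.3 cpm, but with library size alone the sets overlapped (21.8 to 36.5 against 28.3 to 51.8 cpm). MiR-450a-3p measured 1.49 to 2.97 against 0.276 to 0.729 cpm, but it passed the filter only through the miR-1-high libraries, so that this separation was fixed by the filter. Of these relatives and neighbours 7 were tested, and edgeR called none in any of the 10 comparisons.

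Likeness of pattern was described by Pearson's r of log2 cpm over the 10 libraries, which share depth, scaling and the division by miR-1-3p, and no p is given. MiR-503-5p was most like miR-1-3p (r = 0.943), followed by miR-24-3p (0.928) and miR-206-3p (0.914). MiR-16-5p was most like its relative miR-497-5p from another chromosome (r = 0.924), then miR-10a-3p (0.913) and miR-505-3p (0.910). MiR-497-5p was closest to miR-1249 (r = 0.940), and then to miR-16-5p and miR-872-3p (0.922).

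MiR-15b-5p was most like miR-130b-3p (r = 0.895), miR-342-3p (0.894) and miR-92a-1-5p (0.856). For miR-322-5p the closest were miR-10a-5p (0.841), miR-191a-5p (0.799) and miR-186-5p (0.793), and for miR-195-5p they were miR-1249 (0.813), let-7b-3p (0.743) and miR-10a-3p (0.723). Within clusters, r was 0.34 between miR-15b-5p and miR-16-5p, 0.63 between miR-195-5p and miR-497-5p and -0.28 between miR-322-5p and miR-503-5p, and it was -0.04 between the 2 arms of miR-195.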

How the data were processed

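Total RNA was extracted from frozen tissue and small RNA libraries were sequenced on an Illumina HiSeq. Per the study's methods and the submitters' processing notes, the authors demultiplexed reads (CASAVA 1.8), trimmed adapters, dropped reads under 18 bases, aligned the rest (Bowtie, rat build rn4) and quantified them on miRBase hairpins with miRDeep2. The deposited files give read counts per miRNA and precursor; the largest count over precursors was used (each member has 1). A deposited table of the series with 20 columns of values was not used. Counts were TMM-scaled and fitted with edgeR 4.0.16 (1 mean per group, prior count 2, at least 1 cpm in at least 5 of 10 libraries). The procedure was also run on simulated counts drawn independently for each miRNA, without the division by miR-1-3p. How its error rates hold for libraries divided in this way was not tested. The study used limma-voom, here an alternative (limma 3.58.1), as was DESeq2 1.42.0. Ratios of counts were compared by exact permutation. Named are all members, for each comparison the main arm with the largest change and any member called, neighbours in the X cluster, miR-103 and miR-107, and the 3 miRNAs most like each main arm. Members, marker lists and tests were chosen with earlier results of these data known. Sequences are from RefSeq (GRCr8); counts carry no molecular identifiers.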

Additional observations from a re-analysis of the deposited data

Results flagged for a closer look

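The change of miR-15b-5p from 1 h to 34 days differed between the stimulation and the placebo arm, with an interaction of -2.70 (log2) that passed the threshold before adjustment in edgeR's quasi-likelihood test but not the Benjamini-Hochberg adjustment (adjusted p = 0.993). In the MS arm the level went from 61.6 and 27.0 cpm to 27.0 and 24.1 cpm, and in the PLA arm from 22.2 and 13.2 cpm to 116 and 21.0 cpm. Leaving out 1 library at a time, the value ranged from -3.42 without PLA_A 2 to -1.12 without PLA_A 1, and the call was lost in 5 of these 8 fits and with limma-voom. Without both MS_E 1 and PLA_A 1 it was -0.31. Groups of 2 libraries were too small for the check of single outlying samples within a group.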

How the results depend on the processing

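The single call in PLA_A against CIA_B (1 member) became 0 with limma-voom, with the replicate block and without both MS_E 1 and PLA_A 1 (chosen after seeing the data). It was also 0 with a mean of at least 100 counts, a filter that removes miR-15b-3p. It was 2 with library size only (both arms of miR-15b, beside 23 of all 359 miRNAs). Without a filter it was 2 (miR-15b-5p and miR-16-3p, beside 4.66% of all), with the call of miR-15b-3p lost. Leaving out 1 library, the change of miR-15b-3p in PLA_A against CIA_B ranged from 0.73 to 2.28. That of miR-15b-5p ranged from 0.07 to 2.40 there. DESeq2 and a fit of the compared libraries alone called miR-15b-5p there in place of miR-15b-3p. The call in the interaction became 0 with limma-voom, where the value of miR-15b-5p was -2.13, and with library size only, where it was -2.69. Without both libraries this value was -0.31, and leaving out 1 library it ranged from -3.42 to -1.12. Without a filter, 1 member was called in MS_E against CIA_B and in all libraries after therapy against CIA_B (miR-16-3p, 0 to 16 reads), beside 6.56% and 2.94% of all, and 1 in MS against PLA (miR-497-3p), beside 3.97%. Leaving out 1 library, the miR-16-5p difference for 34 days against 1 h ranged from 0.25 (without PLA_A 1) to 1.03 (without MS_E 2).

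Single differences that reversed were miR-195-5p in MS against PLA (-0.08 with library size only), miR-497-5p in MS_A against CIA_B (-0.05 without MS_A 2, 0.97 without MS_A 1) and miR-15b-5p in MS_A against PLA_A (0.29 without PLA_A 1, -2.08 without PLA_A 2, and 0.29 without both PLA_A 1 and MS_E 1). Leaving out 1 library, the log2 ratio of miR-15b-5p to miR-16-5p ranged from -0.55 to 0.47 for MS against PLA and from -0.60 to 0.42 for 34 days against 1 h, and without both libraries these were -0.18 and 0.03. After against before therapy it ranged from 0.29 to 0.70. That of miR-195-5p to miR-497-5p ranged from -0.49 to 0.16 for 34 days against 1 h. That of miR-322-5p to miR-503-5p ranged from -0.56 to 0.92 for MS against PLA, from -0.17 to 1.29 for 34 days against 1 h and from -2.33 to 1.39 after against before therapy. Apart from the construction of these alternatives, the cause was not tested.

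The replicate numbers appear to share only a label: differences between replicates 1 and 2 correlated between groups at -0.54 to 0.59, over 0.1 in 4 of 10 pairs of groups, and the replicate block took the PLA_A call from 1 to 0. A term for the miR-1-3p division left the members called at 1 in both comparisons that had one. Among all 359 miRNAs, those called went from 25 to 47 in PLA_A against CIA_B and from 12 to 16 in the interaction. With 2 libraries a group and 4 to 14 reads of miR-503-5p in 6 libraries, small changes of the low members were not detectable at this depth.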
